A study of Mus musculus with 15 samples.

Results

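The 10 genes described here are Abca1, Abcg1, Abcg5, Abcg8, Scarb1, Lcat, Pltp, Mttp, Soat2 and Nr1h3. Their products move or esterify cholesterol, build or remodel the particles that carry it, or, for Nr1h3, regulate such genes. They were taken as a list of names, with no threshold on their values, from a table of 56980 mouse gene IDs, and each name matched 1 ID; all 10 passed the filter on low counts and were among the 14627 genes tested. The livers came from wild-type male C57Bl/6J mice that were 15 weeks old when their diets began and ate them for 9 months, to show how a ketogenic diet affects liver gene expression. The control diet held 10% fat (4 libraries, replicates 2 to 5), the high-fat diet 60% fat (5 libraries) and the ketogenic diet 89.9% fat (5 libraries). Control replicate 1 stayed out of all comparisons because the submitters call it contaminated. All titles also carry the tag ALF, which the labels do not explain. Nor do the labels say whether each library is a separate mouse, so a p-value here measures only spread among libraries, which may be technical.

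Cholesterol leaves hepatocytes by several routes. ABCA1 loads it, with phospholipid, onto lipid-poor apolipoprotein A-I to start a high-density lipoprotein (HDL), MTTP loads lipid onto apolipoprotein B to start a very-low-density lipoprotein (VLDL), and the ABCG5-ABCG8 pair pumps sterols into bile. Nr1h3 codes for LXR-alpha, a nuclear receptor that is activated by oxysterols and turns on Abca1, Abcg1, Abcg5, Abcg8 and Pltp.

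None of the 10 genes passed the test in any of the 3 comparisons, which does not show that their levels were equal. With p-values from edgeR (quasi-likelihood) adjusted over all genes by the Benjamini-Hochberg method, 0 of 10 passed 0.05 in high-fat against control livers, where 12.0% of all tested genes passed, 0 of 10 in ketogenic against control livers (12.1% of all genes) and 0 of 10 in ketogenic against high-fat livers (0.0615%). At an unadjusted p under 0.05 there were 3 (Abca1, Abcg5 and Soat2), 2 (Abca1 and Mttp) and 2 (Pltp and Mttp), against 27.4%, 28.0% and 8.70% of all genes. DESeq2 called 1 (Soat2), 1 (Mttp) and 0, against 16.7%, 16.6% and 1.19% of all genes. Libraries of the compared diets did not overlap for 0, 1 (Mttp) and 0 of the 10 genes, against 16.2%, 12.5% and 1.76% of all genes. The median log2 difference of the 10 genes was -0.16, -0.21 and 0.04 in the 3 comparisons, beside 0.01, 0.03 and 0.02 over all genes. Both comparisons with control share the same control libraries.

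**Figure D1:**
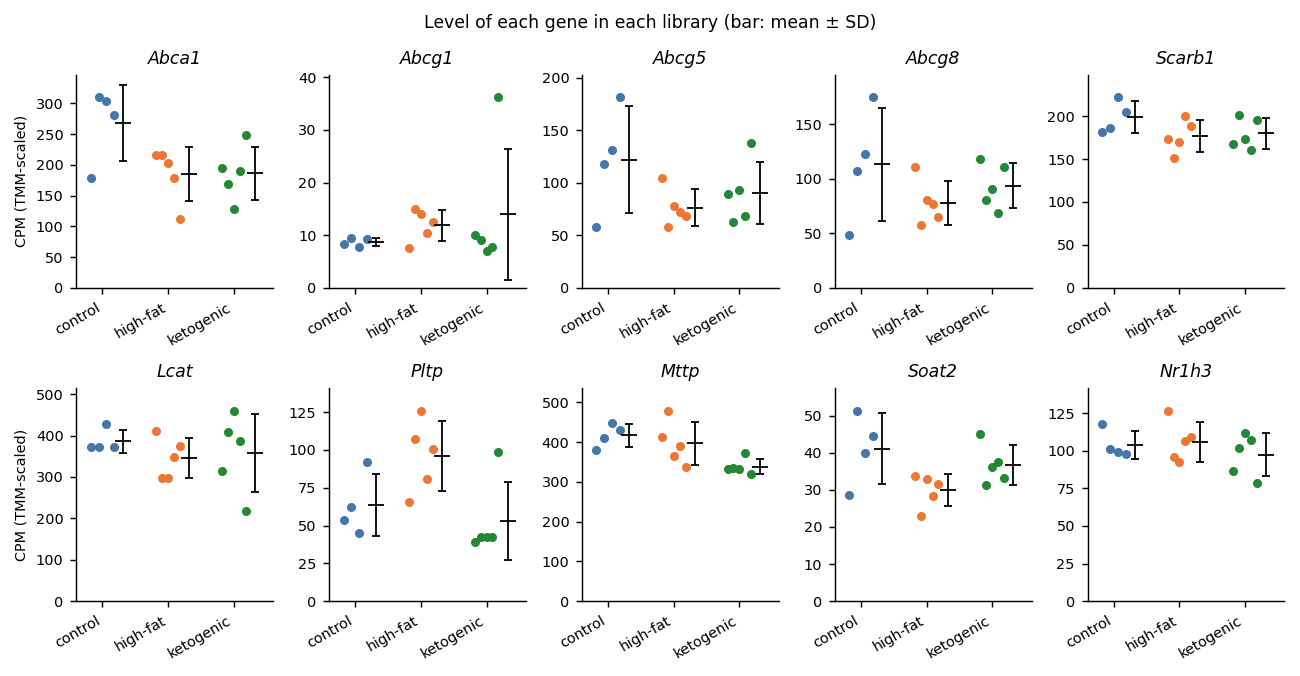
Level of each of the 10 genes in every library, in CPM (read counts scaled to library size, with TMM factors) on an axis from 0, with points ordered by replicate number within each diet and a bar for the mean ± SD. The diets overlap in nearly every panel, control replicate 2 is the lowest control point for Abca1, Abcg5, Abcg8 and Soat2, and ketogenic replicate 5 stands at 36.2 CPM for Abcg1 and 98.7 CPM for Pltp.

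Total counts ran from 16329425 to 25349148 per library. The 7 matched hepatocyte markers summed to between 119893 and 152251 CPM in controls. With high-fat diet the sums lay between 80768 and 112358 CPM and with ketogenic diet between 62793 and 110138 CPM, all under the lowest control, and no marker was at 0. Most of each sum is Alb, with means of 105787 CPM in control, 80690 in high-fat and 76405 in ketogenic livers. Alb was not called in either comparison with control, and its libraries overlapped in high-fat against control but not in ketogenic against control. Of 7 stellate cell and fibroblast markers 3 rose in each comparison with control, where 6.95% (high-fat) and 7.47% (ketogenic) of all tested genes rose. Of 8 markers of recruited and lipid-laden macrophages 1 rose with high-fat and 2 with ketogenic diet. Of the 7 hepatocyte markers 2 and 4 fell, beside 5.01% and 4.60% of all genes. The part of these cell types in the values below was not tested. Of the 14 libraries, 3 stood apart. Control replicate 2 had 1578 CPM of 9 pancreatic acinar markers, against 25.7 to 161 in the other controls, and was the lowest control for 6 of the 10 genes. It also had the most intestinal epithelium marker transcripts of the controls (102 CPM, against 26.5 to 59.7), below both fat-rich diets (103 to 162 CPM). The higher sums of the fat-rich diets are mostly Fabp2, with means of 46.2 CPM in control, 126 in high-fat and 142 in ketogenic livers. The other markers (Vil1, Alpi, Sis, Lct and Cdx2) had higher means in control, with Vil1 at 3.28 CPM against 0.48 and 0.21. Ketogenic replicate 5 lay apart from the other ketogenic libraries on the second principal component of all genes (26.2, against -51.9 to -23.3). It had 782 CPM of 8 markers of recruited and lipid-laden macrophages, against 118 to 212 in the other ketogenic libraries, and the fewest hepatocyte marker transcripts of all 14 (62793 CPM). It was also the highest ketogenic library for stellate cell and fibroblast markers (721 CPM, against 338 to 462). The same held for cholangiocyte (201 against 31.0 to 57.7), Kupffer cell (771 against 373 to 598) and endothelial markers (355 against 232 to 285). The cholangiocyte list shares Spp1 with the macrophage list. Ketogenic replicate 5 was the lowest of its diet for pancreatic acinar, adipocyte and erythroid markers. High-fat replicate 1 was at -15.7 on the first principal component, against 17.6 to 34.6 in the other high-fat libraries, with the most acinar marker transcripts of its diet (696 CPM). It was the highest high-fat library for 6 of the 10 genes, and without it 0 of 10 passed in edgeR's test in both comparisons that use it. In whole tissue, fewer cells of a type and less RNA per cell cannot be told apart.

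Per kilobase of exon, which allows levels to be set side by side between genes, Lcat was the most abundant of the 10 in control livers at 288 ± 20.5 CPM per kb (SD, n = 4) and Abcg1 the least at 1.19 ± 0.11 CPM per kb. Mttp came second at 67.3 ± 4.70 CPM per kb. Then followed Abcg5 (45.0 ± 18.8), Nr1h3 (41.3 ± 3.69), Abcg8 (30.3 ± 13.8), Abca1 (25.9 ± 5.92), Pltp (24.72 ± 8.004), Scarb1 (23.4 ± 2.18) and Soat2 (18.5 ± 4.34). From Abcg5 to Scarb1 each mean differed from the next by less than the larger of their SDs, and Soat2 lay below Scarb1 by slightly more than that. Exon lengths were those of GENCODE M21, an annotation of an earlier build than the counts, so these levels are approximate.

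Abca1, the transporter that starts HDL, had lower means in both fat-rich diets and missed the threshold in both. In control replicates 2 to 5 it stood at 178, 309.5, 304 and 281 CPM. In the 5 high-fat libraries it stood at 215, 215, 203, 178 and 112 CPM, and in the 5 ketogenic ones at 194, 169.5, 127, 190.0 and 248 CPM. Control replicates 3, 4 and 5 lay above all 10 libraries of both fat-rich diets, and control replicate 2 lay within their range. The log2 difference was -0.54 (95% interval -0.99 to -0.08, edgeR adjusted p = 0.120) for high-fat against control and -0.53 (-0.99 to -0.07, adjusted p = 0.125) for ketogenic against control. Between the fat-rich diets it was 0.01 (-0.43 to 0.44). Abca1 passed in both comparisons when control replicate 2 was omitted, at -0.69 (edgeR adjusted p = 0.0484) and -0.68 (0.0468), in fits that called 11.3% and 12.6% of all genes. With any other single library omitted (8 fits each) it did not pass. The differences were then as small as -0.40 and -0.42 (edgeR adjusted p up to 0.269 and 0.273).

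The sequence just before the start of Abca1 is shown because a repeat of the LXR type lies in it. LXR binds, with its partner RXR, to direct repeats with 4 bases between them. The search was for NGGTNA, then 4 bases of any kind, then NGGTNA again, on both strands, in the windows from 250 bases before to 50 after each gene start that RefSeq gives on GRCm38.p6. Of 32851 such windows 0.718% held a match. Of the members, 7 have a window, and Abca1 alone matched, with 1 match on the strand opposite to the gene, from 67 to 52 bases before the start. Several forms of the repeat were tried, and this one was kept after its matches were seen. A stricter form, AGGTNA with 4 bases before the next AGGTNA, is in 0.0974% of windows and in no window of these 7 genes. Below are the last 120 bases before the Abca1 start (chr4:53159896-53160015, minus strand, GRCm38.p6), with the match in capitals.
Abca1: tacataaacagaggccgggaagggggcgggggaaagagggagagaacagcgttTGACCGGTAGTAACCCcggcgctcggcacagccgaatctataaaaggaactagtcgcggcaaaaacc
Read on the other strand the match is:
Abca1 repeat: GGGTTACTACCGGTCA

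Abcg1, a sterol exporter that is abundant in macrophages, was the least abundant of the 10 and did not pass in any comparison. Control libraries held 8.31, 9.42, 7.78 and 9.31 CPM. High-fat libraries held 7.63, 15.0, 13.96, 10.5 and 12.4 CPM, and ketogenic libraries 10.1, 9.03, 6.997, 7.76 and 36.2 CPM. In 4 of the 5 high-fat libraries Abcg1 was above all controls, while among ketogenic libraries replicate 5 alone was far above the rest. The log2 difference was 0.45 (-0.47 to 1.37, edgeR adjusted p = 0.533) for high-fat against control, 0.69 (-0.23 to 1.61, adjusted p = 0.311) for ketogenic against control and 0.24 (-0.61 to 1.09, adjusted p = 0.944) between the fat-rich diets. Without ketogenic replicate 5 the last pair of values turned negative, to -0.06 (adjusted p = 0.879) and -0.49 (adjusted p = 0.148).

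Abcg1 and Pltp are set beside macrophage transcripts because both genes are also made by macrophages. The 8 markers (Trem2, Gpnmb, Spp1, Cd9, Itgax, Ccr2, Lyz2 and Cd68) summed to 105 to 177 CPM with control diet, to 221 to 349 CPM with high-fat diet and to between 118 and 782 CPM with ketogenic diet. None of the 8 was at 0 in all libraries of a diet. The library with the most macrophage marker transcripts, ketogenic replicate 5, also had the most Abcg1. Of all 14 libraries it also had the most stellate cell and fibroblast (721 CPM) and cholangiocyte marker transcripts (201 CPM). Spp1 is on the cholangiocyte list as well. Its mean in ketogenic livers was 63.4 CPM, against 2.35 for Epcam, 2.68 for Krt19, 1.28 for Krt7 and 7.88 for Sox9, the rest of that list. Markers of resident Kupffer cells overlapped more, between 629 and 783 CPM in controls, 527 and 698 CPM with high-fat diet and 373 and 771 CPM with ketogenic diet. The part of these cells in the Abcg1 and Pltp values was not tested.

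**Figure D2:**
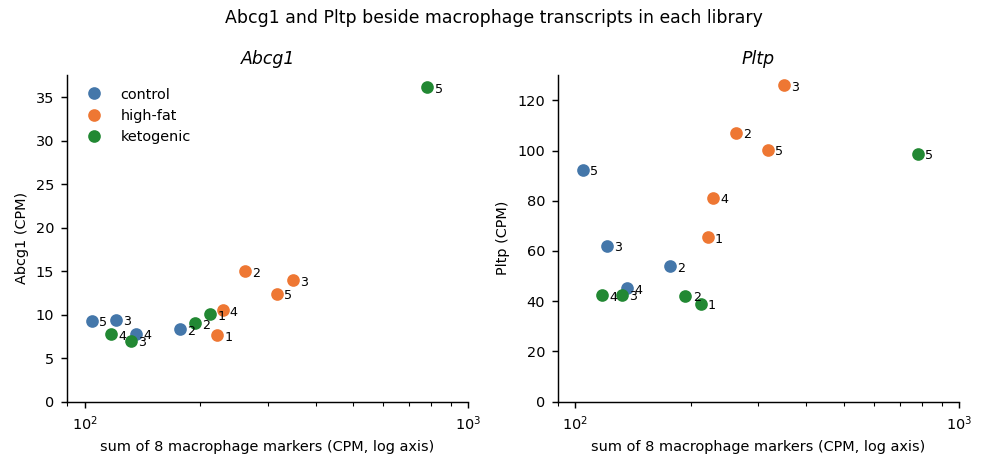
Abcg1 (left) and Pltp (right) in CPM on an axis from 0, against the summed CPM of 8 markers of recruited and lipid-laden macrophages on a log axis, 1 point per library with its replicate number. Ketogenic replicate 5 lies at 782 CPM of markers with 36.2 CPM of Abcg1, apart from the other 13 libraries, while Pltp at 98.7 CPM in this library is within the range of high-fat libraries. This library also had the most stellate cell and fibroblast and cholangiocyte marker transcripts, and the cholangiocyte list shares Spp1 with the macrophage list.

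Abcg5 and Abcg8 code for the subunits of 1 transporter that works only as a pair, at the bile canaliculus. Both had their widest spread in controls. Abcg5 stood at 57.6, 118, 131 and 181 CPM in control replicates 2 to 5, at 105, 57.8, 77.6, 71.8 and 68.8 CPM in high-fat libraries and at 89.5, 63.0, 93.1, 68.0 and 138 CPM in ketogenic ones. Abcg8 stood at 48.9, 108, 123 and 175 CPM in controls, at 110.5, 57.6, 80.5, 76.8 and 64.6 CPM in high-fat and at 118, 80.4, 90.3, 68.4 and 111 CPM in ketogenic libraries. For both genes control replicate 2 was the lowest and control replicate 5 the highest of all 14 libraries.

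For high-fat against control the log2 difference was -0.68 (-1.29 to -0.07, edgeR adjusted p = 0.138) for Abcg5 and -0.54 (-1.15 to 0.07, adjusted p = 0.237) for Abcg8. For ketogenic against control it was -0.44 (-1.04 to 0.17, adjusted p = 0.339) and -0.28 (-0.88 to 0.33, adjusted p = 0.560), and between the fat-rich diets 0.24 and 0.26 (adjusted p = 0.894 and 0.877). Without control replicate 2 both genes passed in high-fat against control, with Abcg5 at -0.92 (adjusted p = 0.0252) and Abcg8 at -0.79 (adjusted p = 0.0338). Omitting control replicate 5 moved them the other way, to -0.43 and -0.26 (adjusted p = 0.381 and 0.608). In ketogenic against control, leaving out control replicate 5 took Abcg5 to -0.19 (adjusted p = 0.738) and Abcg8 to 0.00 (adjusted p = 0.995). Leaving out ketogenic replicate 5 took Abcg5 to -0.66 (adjusted p = 0.142) in that comparison and to 0.04 (adjusted p = 0.964) between the fat-rich diets, and without high-fat replicate 1 the latter was 0.39 for Abcg5 and 0.42 for Abcg8 (adjusted p = 0.755 and 0.719).

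The genes lie head to head on chromosome 17, with 109 bases between their main RefSeq starts, and the stretch is shown because both starts face it. The capitals mark the letters AGATAA, the core of a GATA factor site, read on the opposite strand as TTATCT; 2 such matches lie here and 11.2% of all promoter windows hold at least 1 on either strand. Neither gene's window holds CAAGGTCA, a site of the nuclear receptor LRH-1, which is in 1.56% of windows. The stretch is chr17:84683012-84683120, plus strand, GRCm38.p6, with Abcg5 to the left and Abcg8 to the right.
Abcg5-Abcg8: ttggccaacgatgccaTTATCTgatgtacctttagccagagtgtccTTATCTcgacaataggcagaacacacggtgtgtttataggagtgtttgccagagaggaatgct

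The balance of the pair was compared within each library, as the ratio of the Abcg8 count to the Abcg5 count, which does not depend on scaling. It was 0.849, 0.910, 0.935 and 0.963 in control replicates 2 to 5, and 1.05, 0.998, 1.04, 1.07 and 0.939 in the high-fat libraries. In the ketogenic libraries it was 1.32, 1.28, 0.970, 1.01 and 0.807. So counts of the pair stayed near each other while their levels ranged widely, high-fat replicate 5 alone of its diet fell within the control range, and the ketogenic libraries spread more than both other diets. The mean log2 ratio was -0.13 ± 0.08 (SD, n = 4) in control, 0.03 ± 0.08 (n = 5) in high-fat and 0.08 ± 0.29 (n = 5) in ketogenic livers. In two-sided exact permutation tests adjusted over the 3 comparisons, the difference was 0.16 for high-fat against control (p = 0.0238, adjusted p = 0.0714), 0.21 for ketogenic against control (p = 0.230, adjusted p = 0.345) and 0.06 between the fat-rich diets (p = 0.738, adjusted p = 0.738). Without ketogenic replicate 5 the second of these became 0.31 (adjusted p = 0.0429, exact permutation test), with all 4 remaining ketogenic libraries above all controls. The unadjusted p is then at the smallest that 4 libraries against 4 allow, and the adjusted p also depends on the other comparisons. With any other single library omitted (8 fits) this comparison did not pass (adjusted p up to 0.643, exact permutation test). In GENCODE M21 the genes share 82 exon bases on opposite strands, 3.02% of Abcg5 exons and 2.19% of Abcg8 exons.

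**Figure D3:**
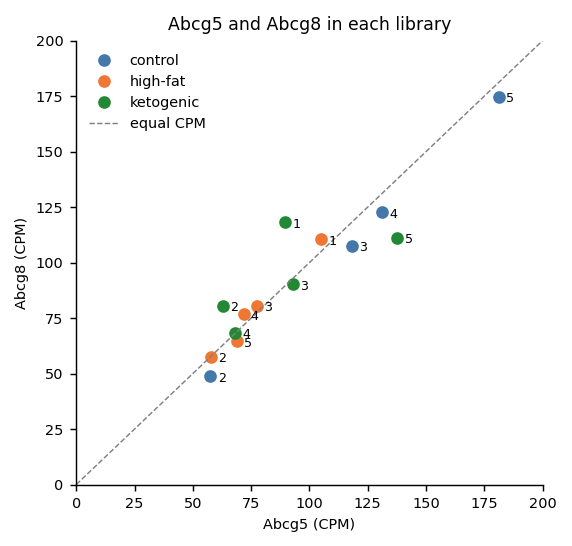
Abcg8 against Abcg5 in CPM, 1 point per library with its replicate number, on equal axes from 0 with a dashed line of equal CPM. All 4 control libraries lie just under the line, and ketogenic replicates 1 and 2 (ratios 1.32 and 1.28) lie farthest above it.

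Scarb1 codes for SR-BI, the receptor that takes cholesterol from HDL into hepatocytes. It stood between 181 and 222 CPM with control diet, between 151 and 200.2 CPM with high-fat diet and between 161 and 202 CPM with ketogenic diet, so all 3 ranges overlapped, with control libraries toward the top. The log2 differences were -0.17 (-0.40 to 0.07), -0.14 (-0.38 to 0.09) and 0.03 (-0.20 to 0.25) for high-fat against control, ketogenic against control and ketogenic against high-fat (edgeR adjusted p = 0.347, 0.425 and 0.980). These are the narrowest intervals among the 10 genes together with those of Mttp and Nr1h3.

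Lcat codes for the plasma enzyme that esterifies cholesterol on HDL. In control libraries it stood at 373, 372, 428 and 373 CPM. High-fat libraries ran from 297 to 409.8 CPM and ketogenic ones from 219 (replicate 5) to 460.0 CPM. The ketogenic range enclosed that of both other diets. The log2 differences were -0.16 (-0.54 to 0.21), -0.11 (-0.49 to 0.26) and 0.05 (-0.31 to 0.40) in the same order (edgeR adjusted p = 0.594, 0.713 and 0.979).

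Pltp, which codes for the phospholipid transfer protein that remodels HDL in plasma, showed the largest difference of the 10 genes in any comparison. It stood at 53.9, 62.1, 45.1 and 92.3 CPM in control libraries, at 65.4, 107, 126, 81.1 and 100.4 CPM in high-fat libraries, and at 38.9, 42.1, 42.6, 42.3 and 98.7 CPM in ketogenic libraries. Ketogenic replicates 1 to 4 lay close together and below every control and high-fat library, and replicate 5 lay among the high-fat libraries. The log2 difference of ketogenic from high-fat livers was -0.86 (-1.44 to -0.27, edgeR unadjusted p = 0.00716, adjusted p = 0.308). Without ketogenic replicate 5, Pltp fell past the threshold, at -1.21 (adjusted p = 0.00642), in a fit that called 315 genes (2.19%) where 9 had been called with all libraries.

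Against control the log2 difference of Pltp was 0.60 (-0.02 to 1.22, edgeR adjusted p = 0.199) in high-fat and -0.26 (-0.87 to 0.36, adjusted p = 0.596) in ketogenic livers. Without ketogenic replicate 5 the second was -0.63 (adjusted p = 0.0588), and without control replicate 5, the highest control, it was -0.03 (adjusted p = 0.968). In GENCODE M21, 495 of the exon bases of Pltp (19.3%) lie opposite exons of Ctsa, a lysosomal protease gene, and no label or header states the strand setting of the counting. Ctsa itself was at 155 ± 6.31 CPM in control (SD, n = 4), 173 ± 26.2 in high-fat (n = 5) and 160.3 ± 7.44 in ketogenic livers (n = 5), with adjusted p from 0.383 to 0.858 in edgeR's test.

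Mttp, the lipid transfer protein of VLDL assembly, was the one member whose CPM values did not overlap between 2 diets. Control libraries held 381, 409.9, 448 and 432 CPM, and ketogenic libraries 333, 336, 332, 373 and 319.6 CPM. High-fat libraries held 412, 479, 364, 391 and 338 CPM and overlapped both. All ketogenic libraries were below all controls, as was so for 5.17% of all tested genes in that direction. The log2 difference from control was -0.30 (-0.54 to -0.06, edgeR adjusted p = 0.0941) in ketogenic and -0.07 (-0.31 to 0.17, adjusted p = 0.721) in high-fat livers, and -0.23 (-0.46 to -0.0013, adjusted p = 0.569) between the fat-rich diets. DESeq2 called the first, at -0.32 (adjusted p = 0.0198), and with library totals in place of TMM it was -0.13 (adjusted p = 0.430). That scaling moves the median of all genes from 0.03 to 0.21 in this comparison. Exons of Mttp share 457 bases (7.36%) with the opposite-strand gene Trmt10a, which was at 4.74 ± 0.73 CPM in control (SD, n = 4) and 4.98 ± 0.44 CPM in ketogenic livers (n = 5).

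Soat2, the enzyme that makes cholesteryl esters in hepatocytes for storage and for lipoprotein cores, had its lowest mean in high-fat livers. It stood at 28.5, 51.3, 39.8 and 44.5 CPM in controls, at 33.8, 23.05, 32.9, 28.3 and 31.6 CPM in high-fat libraries and at 45.1, 31.4, 36.3, 37.4 and 33.1 CPM in ketogenic libraries. Control replicates 3, 4 and 5 lay above all high-fat libraries, and control replicate 2 lay among them. The log2 difference for high-fat against control was -0.46 (-0.80 to -0.12, edgeR adjusted p = 0.0758), the smallest adjusted p of the 10 genes in any comparison. It passed with DESeq2 (-0.47, adjusted p = 0.0417) and when control replicate 2 was omitted (-0.60, edgeR adjusted p = 0.0169). Those fits called 16.7% and 11.3% of all genes. In 13 of all 17 alternatives Soat2 did not pass. Over the 17 the difference was as small as -0.33, with edgeR adjusted p up to 0.251. The other differences were -0.16 (-0.50 to 0.18, adjusted p = 0.535) for ketogenic against control and 0.29 (-0.03 to 0.62, adjusted p = 0.624) between the fat-rich diets. Without control replicate 3 the former was -0.04 and without control replicate 2 it was -0.30 (adjusted p = 0.910 and 0.179).

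Nr1h3, the LXR-alpha gene, had among the smallest differences of the 10. It stood between 97.9 and 118 CPM with control diet, between 92.5 and 127 CPM with high-fat diet and between 78.8 and 112 CPM with ketogenic diet, so all 3 ranges overlapped. The log2 differences were 0.03 (-0.23 to 0.29), -0.09 (-0.36 to 0.17) and -0.12 (-0.37 to 0.13) for high-fat against control, ketogenic against control and ketogenic against high-fat (edgeR adjusted p = 0.909, 0.656 and 0.860).

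**Figure D4:**
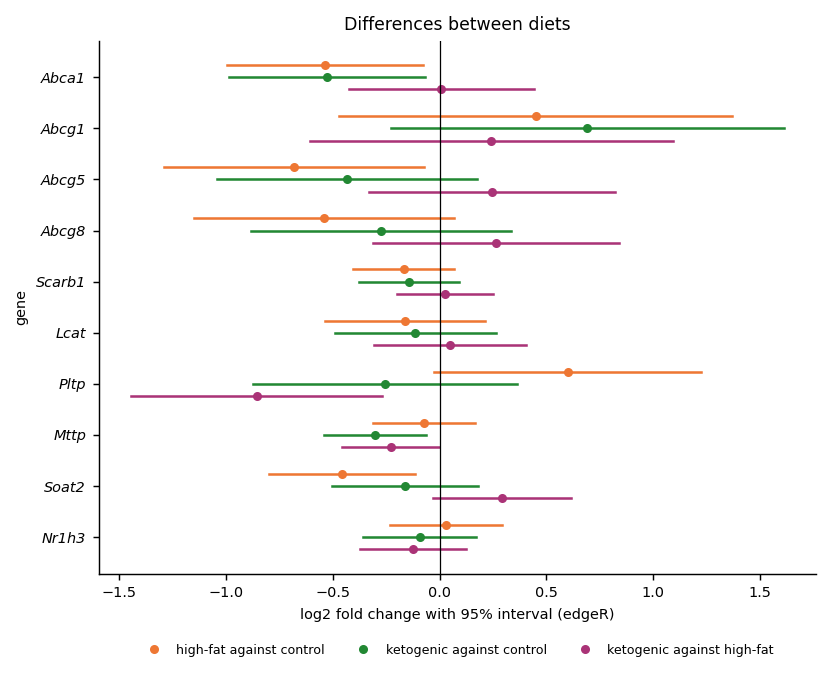
Log2 fold change of the 10 genes with its 95% interval (line) from edgeR's fit over the 3 diets, in 3 colours for the 3 comparisons. The intervals of Scarb1, Mttp and Nr1h3 are the narrowest and those of Abcg1 the widest, and the lowest value is that of Pltp in ketogenic against high-fat livers (-0.86).

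Related genes were read from 5 lists, and some of them changed. Of all tested genes, 6.95% rose and 5.01% fell with high-fat diet and 7.47% rose and 4.60% fell with ketogenic diet, against control. Among 12 partners of LXR and other LXR targets, 2 rose and 1 fell in high-fat against control livers, and 1 rose and 1 fell in ketogenic against control livers. Rxrg, an RXR partner made at a low level in liver, rose from 3.25 ± 1.23 CPM in control (SD, n = 4) to 6.67 ± 1.15 CPM in high-fat (n = 5) and 6.08 ± 0.85 CPM in ketogenic livers (n = 5), with edgeR adjusted p = 0.00702 and 0.0139. Smpdl3a, a sterol-responsive phosphodiesterase, rose in high-fat livers, with a log2 fold change of 0.40 (adjusted p = 0.0449). The Rxrg call in ketogenic livers and the Smpdl3a call were lost under some of the alternatives (largest edgeR adjusted p = 0.0533 and 0.139).

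Of 13 partners of VLDL assembly and secretion, 1 rose and 1 fell in high-fat livers and 1 fell in ketogenic livers, all against control. Tm6sf2, a membrane protein needed to load lipid onto VLDL, fell from 36.5 ± 6.18 CPM in control (SD, n = 4) to 15.6 ± 4.11 CPM in ketogenic livers (n = 5), a log2 fold change of -1.23 ± 0.19 (SE, edgeR adjusted p = 0.000499). In high-fat livers Tm6sf2 was at 25.1 ± 4.57 CPM, and the groups of controls and ketogenic livers did not overlap. Sar1b, the GTPase of large secretory carriers, rose (log2 fold change 0.44, edgeR adjusted p = 0.0391) and Surf4, a cargo receptor for lipoproteins, fell (-0.48, adjusted p = 0.0284) in high-fat livers, both calls lost under several alternatives (largest adjusted p = 0.136 and 0.0878).

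Of 12 partners of HDL formation and remodelling, 2 fell and 0 rose in each comparison with control. Ttc39b, whose product lowers LXR protein, fell from 34.5 ± 6.49 CPM in control (SD, n = 4) to 22.5 ± 4.47 CPM in high-fat and 19.9 ± 2.47 CPM in ketogenic livers (n = 5 each, edgeR adjusted p = 0.0211 and 0.00418). Apom, an HDL apolipoprotein, fell from 205 ± 19.7 to 96.8 ± 26.3 CPM in high-fat livers (adjusted p = 0.0213). Lipc, the hepatic lipase, fell from 147 ± 10.1 to 101 ± 18.4 CPM in ketogenic livers (adjusted p = 0.0415). The calls on Ttc39b in high-fat livers, on Apom and on Lipc were lost under some alternatives (largest adjusted p = 0.106, 0.0655 and 0.117).

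Of 14 genes of sterol transport and esterification inside the cell 13 were tested, and 2 rose and 1 fell in high-fat and 1 rose and 1 fell in ketogenic livers against control. Nceh1, a cholesteryl ester hydrolase, rose from 19.04 ± 3.51 CPM in control (SD, n = 4) to 37.5 ± 7.43 CPM in high-fat and 49.1 ± 7.03 CPM in ketogenic livers (n = 5 each), at 0.98 ± 0.17 and 1.37 ± 0.17 (SE) on the log2 scale (edgeR adjusted p = 0.00182 and 0.000127). Its control libraries lay below all libraries of both fat-rich diets, while Soat2, which makes the esters, overlapped between all diets. Lipa, the lysosomal lipase, rose from 203 ± 27.3 to 323 ± 52.5 CPM in high-fat livers (adjusted p = 0.0113). Stard4, a cytosolic sterol carrier, fell in both diets (-0.81 and -0.72, adjusted p = 0.0300 and 0.0487), calls lost under some alternatives (largest adjusted p = 0.0991 and 0.147).

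Of 11 lipoprotein receptors and uptake genes, 2 rose and 1 fell in high-fat livers and 1 rose and 4 fell in ketogenic livers against control. Cd36, a fatty acid and lipoprotein scavenger receptor, rose from 28.5 ± 7.07 CPM in control to 248 ± 72.9 CPM in high-fat and 226 ± 70.6 CPM in ketogenic livers (edgeR adjusted p = 1.86e-05 and 2.10e-05). Lsr, a receptor for triglyceride-rich lipoproteins, fell from 318 ± 37.6 CPM in control (SD, n = 4) to 186 ± 22.3 CPM in high-fat and 193 ± 40.9 CPM in ketogenic livers (n = 5 each, edgeR adjusted p = 0.00386 and 0.00524). Vldlr, the VLDL receptor, rose from 1.72 ± 1.08 to 7.67 ± 2.25 CPM in high-fat livers (adjusted p = 0.00642). Lrpap1 (-0.34) and Sdc1 (-0.36), named after their values were seen, fell in ketogenic livers (edgeR adjusted p = 0.0350 and 0.0496). In ketogenic against high-fat livers 0 genes of the 5 lists passed in edgeR's test. The most abundant gene of each list had log2 differences there of 0.05 (Rxra), -0.06 (Apob), -0.14 (Apoe), 0.03 (Scp2) and 0.02 (Lrp1), with adjusted p from 0.890 to 0.992.

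**Figure D5:**
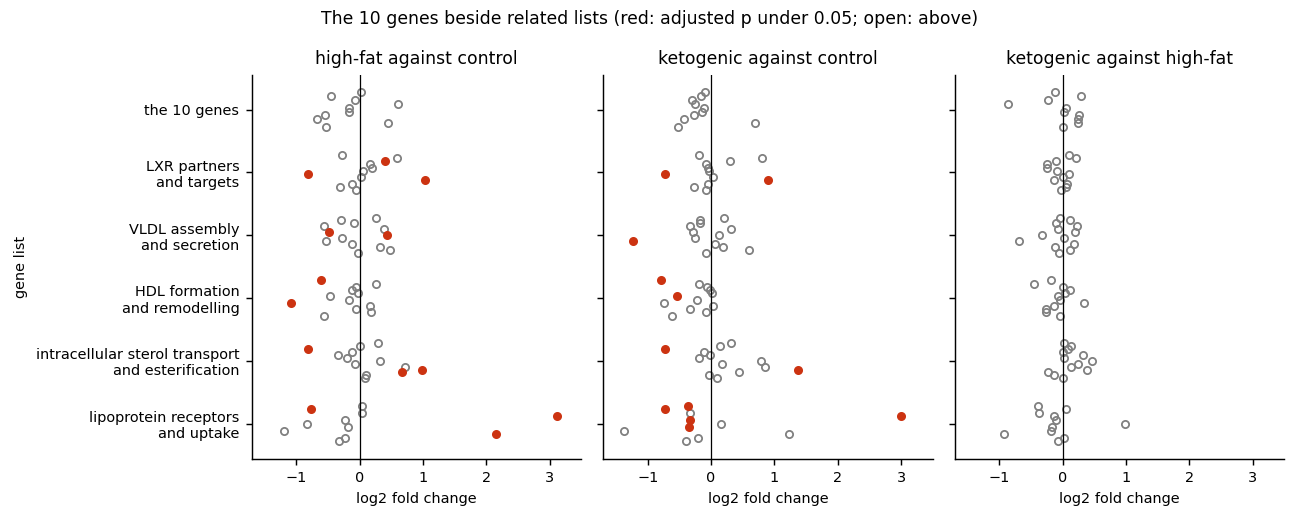
Log2 fold change of the 10 genes and of 5 related lists in the 3 comparisons, 1 point per tested gene, filled red where edgeR's adjusted p was under 0.05 and open otherwise. The 10 genes are open in all 3 panels, while each related list has red points in both comparisons with control, from Cd36 and Nceh1 on the right to Tm6sf2 on the left. Of all tested genes 12.0% (high-fat) and 12.1% (ketogenic) passed in those comparisons.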

How the data were processed

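Per the labels' protocols, libraries were strand-specific and made from poly(A) RNA of snap-frozen liver. The authors deposited raw counts of reads for each Ensembl gene ID. Tools named by the submitters' processing notes are STAR 2.7.9a, cutadapt 1.16, featureCounts 1.6 and DESeq2 1.36.0, the build is GRCm39, and their roles, annotation and strand setting are unstated. Symbols came from GENCODE M21 (GRCm38) and matched 91.4% of IDs.

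In R 4.3.3, filterByExpr of edgeR 4.0.16 kept genes (minimum count 10, minimum total 15). The counts of 14 libraries were TMM-scaled, all diets were fitted together by robust quasi-likelihood, and two-sided p-values were adjusted by Benjamini-Hochberg over 14627 genes. The SE is the absolute log2 fold change divided by the square root of F, and 95% intervals use the degrees of freedom of the fit. Alternatives were DESeq2 1.42.0, RLE size factors, library totals, no filter, a replicate block, a library number term, fitting only the 2 diets compared, and leaving out libraries. Replicate numbers did not pair libraries (3 of 13 same-number pairs correlated above 0.1).

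The 10 genes and all lists were chosen with earlier results of these data known. The text names all 10 and, per related list and comparison, up to 3 genes with the smallest adjusted p past 0.05, or else the most abundant gene. Some genes that the rule names are not reported here. Genes of like pattern were to be named for members that passed, so none are.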

Additional observations from a re-analysis of the deposited data

Results flagged for a closer look

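In 4 of 33 sets of libraries examined (10 genes and the Abcg8 to Abcg5 ratio, in 3 diets), 1 library lay farther from the others than Dixon's 95% limit allows; chance gives about 1 in 20. Abcg1 was at 36.2 CPM in ketogenic replicate 5, and Pltp was at 98.7 CPM in the same library. Markers of macrophages, of stellate cells and fibroblasts and of cholangiocytes were also highest there. The macrophage and cholangiocyte lists share Spp1, which had the highest ketogenic mean of the cholangiocyte list. Lcat was at 428 CPM in control replicate 4, beside 3 controls at 372 to 373 CPM. Nr1h3 was at 118 CPM in control replicate 2, the library that was lowest of the controls for Abca1, Abcg5 and Abcg8.

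The control library that the submitters excluded was read on its own, as CPM of library totals without TMM scaling. Pltp was at 128 in it, against 41.0 to 81.7 in the 4 other controls on the same scale. Mttp was at 437, against 365 to 407, and Soat2 at 50.2, against 27.3 to 49.4. Scarb1 (160.2 against 174 to 202) and Lcat (328 against 330.4 to 389) were below all 4 other controls, and the remaining 5 genes lay within their range.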

How the results depend on the processing

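Of 520 values of the 10 genes under alternatives, 473 kept direction and side of the threshold, 17 newly passed it with the same sign and 30 changed sign, of which 1 (Abcg1) also passed. Main counts of genes called were 1749 (high-fat against control), 1766 (ketogenic against control) and 9 (ketogenic against high-fat). Leaving out single libraries, or the pairs named next, gave 934 to 2145, 1056 to 2201 and 1 to 636. Pairs were chosen after seeing the data, the genes' values included. They were control 2 with high-fat 1, control 2 with ketogenic 5, and high-fat 1 with ketogenic 5. Of the 10 genes 0 to 4, 0 to 2 and 0 to 2 passed in these fits. Those with a pair left out were Abca1, Abcg5, Abcg8 and Soat2 (-0.75, -1.06, -0.95 and -0.64), Abca1 and Abcg5 (-0.81 and -0.87), and Pltp and Abcg1 (-1.32 and -0.61). For ketogenic against high-fat, DESeq2 called 173 genes, library totals 15, no filter 26 and only the 2 diets compared 1. DESeq2 called 1 of the 10 genes in each comparison with control. Library totals gave 1302 higher and 420 lower genes for high-fat and 1826 and 368 for ketogenic against control, beside 1016 and 733, and 1093 and 673. They shifted the median of all genes to 0.13 and 0.21 and turned Mttp to 0.054 (high-fat), Scarb1 to 0.040, Lcat to 0.030, Soat2 to 0.016 and Nr1h3 to 0.060 (ketogenic), and Apob to 0.016 (ketogenic against high-fat).

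Small differences changed sign as libraries were left out. Against control, Nr1h3 ran from -0.043 to 0.092 with high-fat diet. With ketogenic diet the ranges were -0.059 to 0.86 for Abcg1, -0.59 to 0.0040 for Abcg8, -0.22 to 0.0064 for Lcat and -0.15 to 0.041 for Nr1h3. Between the fat-rich diets they were -0.13 to 0.12 for Abca1, -0.61 to 0.41 for Abcg1, -0.026 to 0.074 for Scarb1, -0.059 to 0.25 for Lcat, -0.18 to 0.016 for Nr1h3, -0.00096 to 0.26 for Rxra, -0.26 to 0.073 for Apob, -0.025 to 0.084 for Scp2 and -0.11 to 0.13 for Lrp1. The difference in log2 ratio of Abcg8 to Abcg5 changed sign in ketogenic against high-fat (-0.023 to 0.15). In ketogenic against control that difference kept its sign (0.13 to 0.31).

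With a replicate block, which called 9.43% of all genes in high-fat against control, 2 of the 10 genes passed there: Pltp at 0.76 (edgeR adjusted p = 0.0338) and Soat2 at -0.50 (adjusted p = 0.0209). The block called 15 genes in ketogenic against high-fat. Of 14 libraries 3 correlated best with their own number, and the numbers were not taken as pairs. In the ratio of Abcg8 to Abcg5 the block gave 0.14, 0.13 and 0.06, but the exact sign-flip test over 4, 4 and 5 pairs cannot go below p = 0.125, 0.125 and 0.0625 and so can make no call.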
